A study of Homo sapiens with 12 samples.

Results

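Box C/D small nucleolar RNAs were followed in the human embryonic kidney line HEK293T, in cells that carried either a control hairpin or a hairpin against HuR, the RNA-binding protein encoded by ELAVL1. They were taken as the rows of the count table whose symbol starts with SNORD and whose mean over all libraries was at least 0.5 CPM (counts scaled to a common library total). Of 252 such rows among the 23615 rows of the table, 50 reached that level and are called the members here, 202 stayed under it, and 128 had no count in any library. The members just inside were SNORD88A at 0.594 CPM, SNORD26 at 0.593, SNORD44 at 0.543 and SNORD1C at 0.516, and the rows just outside were SNORD100 at 0.492, SNORD99 at 0.478, SNORD95 at 0.471 and SNORD79 at 0.444. All 50 members passed the filter on low counts that preceded the tests.

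The study held 6 groups of 2 libraries, each library from a biological replicate: the shControl line untreated, with HNE(alkyne) at 25 µM or with H2O2 at 225 µM, and the shHuR line in the same 3 states. HNE is an electrophile formed when lipids are oxidised, here in a form with an alkyne handle, and both agents acted for 18 h. Both lines were made by lentiviral delivery of 1 hairpin construct and selection with puromycin, so each is 1 selected population and a difference between the lines cannot be told apart from a difference between those populations. Total RNA was freed of ribosomal RNA and sequenced without a step that selects small RNAs, per the labels' protocols.

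The 12 libraries held 24855947 to 29907259 counts. ELAVL1 stood at 93.1 ± 4.91 CPM in shControl and 71.3 ± 2.01 in shHuR (SD, n = 6 libraries over the 3 treatments), a log2 fold change of -0.38 in the average line effect (edgeR, adjusted p = 2.60e-06). Of the markers of HEK293T, LIN28B, NEFL and NEFM were detected in every library and PAX2 reached at most 0.490 CPM. Between the lines LIN28B fell by 0.38 and NEFL by 0.47 on the log2 scale while NEFM rose by 1.10 (average line effect, edgeR, all called), and their part in the results was not tested. PTPRC, PECAM1, ALB and KRT5, markers of leukocytes, endothelium, hepatocytes and basal epithelium, reached at most 0.219 CPM, and the fibroblast marker COL1A1 lay between 2.17 and 4.86 CPM.

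Box C/D small nucleolar RNAs guide the methylation of the ribose in ribosomal and spliceosomal RNA. Each carries a C box near its 5′ end and a D box near its 3′ end, which bind SNU13, NOP56, NOP58 and the methyltransferase fibrillarin. Most human members are cut out of the introns of host genes, many of which encode ribosomal proteins or translation factors, while others, such as GAS5 and SNHG1, are non-coding.

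Sequences of 44 of the 50 members were found by symbol in GENCODE 29, and 39 of these (88.6%) held both boxes. The boxes were searched as TGATG starting in the first 20 bases and CTGA in the last 20, on the RNA strand only. Among the 187 SNORD rows under the level that had a sequence, 164 (87.7%) held both, so the boxes did not set the members apart. The 6 sequences below belong to short members with large line differences in the results; capitals mark the TGATG of the C box and the CTGA of the D box.
SNORD36A: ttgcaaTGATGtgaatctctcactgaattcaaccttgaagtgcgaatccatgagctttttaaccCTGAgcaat
SNORD56: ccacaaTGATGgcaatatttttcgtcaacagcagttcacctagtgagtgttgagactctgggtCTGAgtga
SNORD66: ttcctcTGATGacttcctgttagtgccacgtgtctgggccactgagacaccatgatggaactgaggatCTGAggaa
SNORD24: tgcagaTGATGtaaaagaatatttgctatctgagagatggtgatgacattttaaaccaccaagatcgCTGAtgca
SNORD60: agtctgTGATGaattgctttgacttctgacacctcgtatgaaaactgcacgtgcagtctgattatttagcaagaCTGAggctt
SNORD104: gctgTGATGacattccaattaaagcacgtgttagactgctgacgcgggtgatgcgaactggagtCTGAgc
On GRCh38 these lie in RPL7A (SNORD36A, chr9:133350456-133350528, and SNORD24, chr9:133349396-133349470, plus strand), in NOP56 (SNORD56, chr20:2656624-2656694, plus strand), in an intron of EIF4G1 (SNORD66, chr3:184325696-184325771, plus strand), in an intron of the non-coding SNHG19 (SNORD60, chr16:2155023-2155105, minus strand) and in an intron of the non-coding SNHG25 (SNORD104, chr17:64146083-64146152, plus strand). SNORD36A, SNORD24 and SNORD56 also fall within exons of alternative transcripts annotated for their hosts. SNORD36A, SNORD56 and SNORD66 guide methylation of the small-subunit ribosomal RNA, and SNORD24, SNORD60 and SNORD104 that of the large-subunit ribosomal RNA.

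The next 2 are long, abundant members that differed little between the lines, shown in the same way.
SNORD97: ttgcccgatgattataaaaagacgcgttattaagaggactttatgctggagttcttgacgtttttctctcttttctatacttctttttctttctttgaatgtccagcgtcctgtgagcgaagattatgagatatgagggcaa
SNORD10: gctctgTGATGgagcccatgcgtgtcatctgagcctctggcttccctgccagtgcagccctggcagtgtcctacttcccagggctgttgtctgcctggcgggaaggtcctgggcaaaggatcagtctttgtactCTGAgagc
SNORD97 (chr11:10801467-10801608, minus strand) lies partly in an exon of EIF4G2, takes part in methylation of a transfer RNA, and held neither box as searched, which says only that these letters were not in those windows. SNORD10 (chr17:7576811-7576952, plus strand), in EIF4A1, guides methylation of the U6 spliceosomal RNA. The authors' build was GRCh37, so all positions are those of the reference.

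The members were 61 to 237 bases long, with a median of 85.5; 17 were under 80 bases and 13 had 100 bases or more. The 202 rows under the level were shorter, with a median of 78 bases, and 5 of them reached 100 bases. Per 100 bases, SNORD15B had the highest level at 390 ± 120 CPM (SD, n = 12 libraries), followed by SNORD97 at 278 ± 66.4, SNORD10 at 139 ± 30.4, SNORD17 at 111 ± 30.3 and SNORD22 at 68.9 ± 25.9. SNORD15B and SNORD97 differed by less than the spread of SNORD15B over libraries, and SNORD10 and SNORD17 by less than the spread of either. Members shifted together between libraries, so these spreads do not give the error of such a difference. In CPM, SNORD15B read above SNORD97 in every library. In a library, the 4 members with the highest CPM (SNORD15B, SNORD97, SNORD17 and SNORD10) made up 69.3% to 80.7% of the summed CPM of all 50.

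The members were lower in shHuR than in shControl, and averaged over treatments the difference was large for short members and small for long ones. In the average line effect, which compares 6 libraries with 6 and keeps treatment as a term, 42 of the 50 fell with an adjusted p under 0.05 (edgeR's quasi-likelihood F-test, Benjamini-Hochberg over 16005 genes) and none rose. Over all genes tested, 15.9% were called lower in that comparison. All 50 members had a negative log2 fold change, with a median of -1.20, against a median of -0.002 over all genes. Of the 42, 29 were at least 2-fold lower. A mean over all libraries also admits members through shControl alone: 10 members had a shHuR mean under 0.5 CPM, and no member had a shControl mean under it. Among the other 40 members 36 were called lower, with a median of -1.15. Counting reads of a bulk sample cannot tell fewer cells with an RNA from less of that RNA in each cell.

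SNORD36A had the largest difference. In shControl it stood at 0.992 and 1.61 CPM untreated, 2.07 and 4.99 with HNE, and 2.39 and 1.08 with H2O2. In shHuR it stood at 0.692 and 0.475 CPM untreated, 0.393 and 0.328 with HNE, and 0.330 and 0.517 with H2O2. Every shHuR library was below every shControl library, and the average line effect was -2.15 ± 0.36 (log2 fold change ± SE, edgeR, adjusted p = 2.44e-04). These levels rest on 9 to 122 counts per library. SNORD36A was called in each of the 18 alternative fits of this comparison, with log2 fold changes from -2.36 to -1.82.

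SNORD85, SNORD44 and SNORD66 followed. The shHuR mean of each of these 4 was under the 0.5 CPM that chose the members (SNORD36A 0.456, SNORD85 0.456, SNORD44 0.208 and SNORD66 0.499), so they are members only through shControl and had to be higher there. SNORD85 stood in shControl at 0.588 and 1.90 CPM untreated, 1.67 and 4.41 with HNE, and 2.58 and 0.935 with H2O2, and in shHuR at 0.773 and 0.339, 0.275 and 0.510, and 0.183 and 0.655. Its lowest shControl library lay within the shHuR range, and the average line effect was -2.06 ± 0.43. SNORD44, one of the small nucleolar RNAs of GAS5 and a guide for the small-subunit ribosomal RNA, stood in shControl at 0.257 and 0.465 CPM untreated, 0.50 and 2.66 with HNE, and 0.872 and 0.611 with H2O2. Its shHuR libraries read 0.285 and 0.136, 0.118 and 0.255, and 0.147 and 0.310 CPM, so the lines overlapped through the first untreated shControl library. The average line effect of SNORD44 was -1.92 ± 0.49, on 3 to 65 counts per library. SNORD66 stood in shControl at 0.919 and 1.11 CPM untreated, 0.967 and 5.27 with HNE, and 2.2 and 0.755 with H2O2, against 0.773 and 0.441, 0.354 and 0.365, and 0.404 and 0.655 in shHuR. For SNORD66, 5 of the 6 shHuR libraries were below all shControl libraries, and the average line effect was -1.77 ± 0.45.

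All 6 shHuR libraries were below all 6 shControl libraries for 4 members, SNORD21, SNORD28, SNORD36A and SNORD55, of which the other 3 are named after their values were seen. Over all genes tested, 6.84% had this arrangement in the lower direction, so the count of 4 in 50 is near the background. For most members the lines overlapped, and replicates of a group lay far apart.

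**Figure D1:**
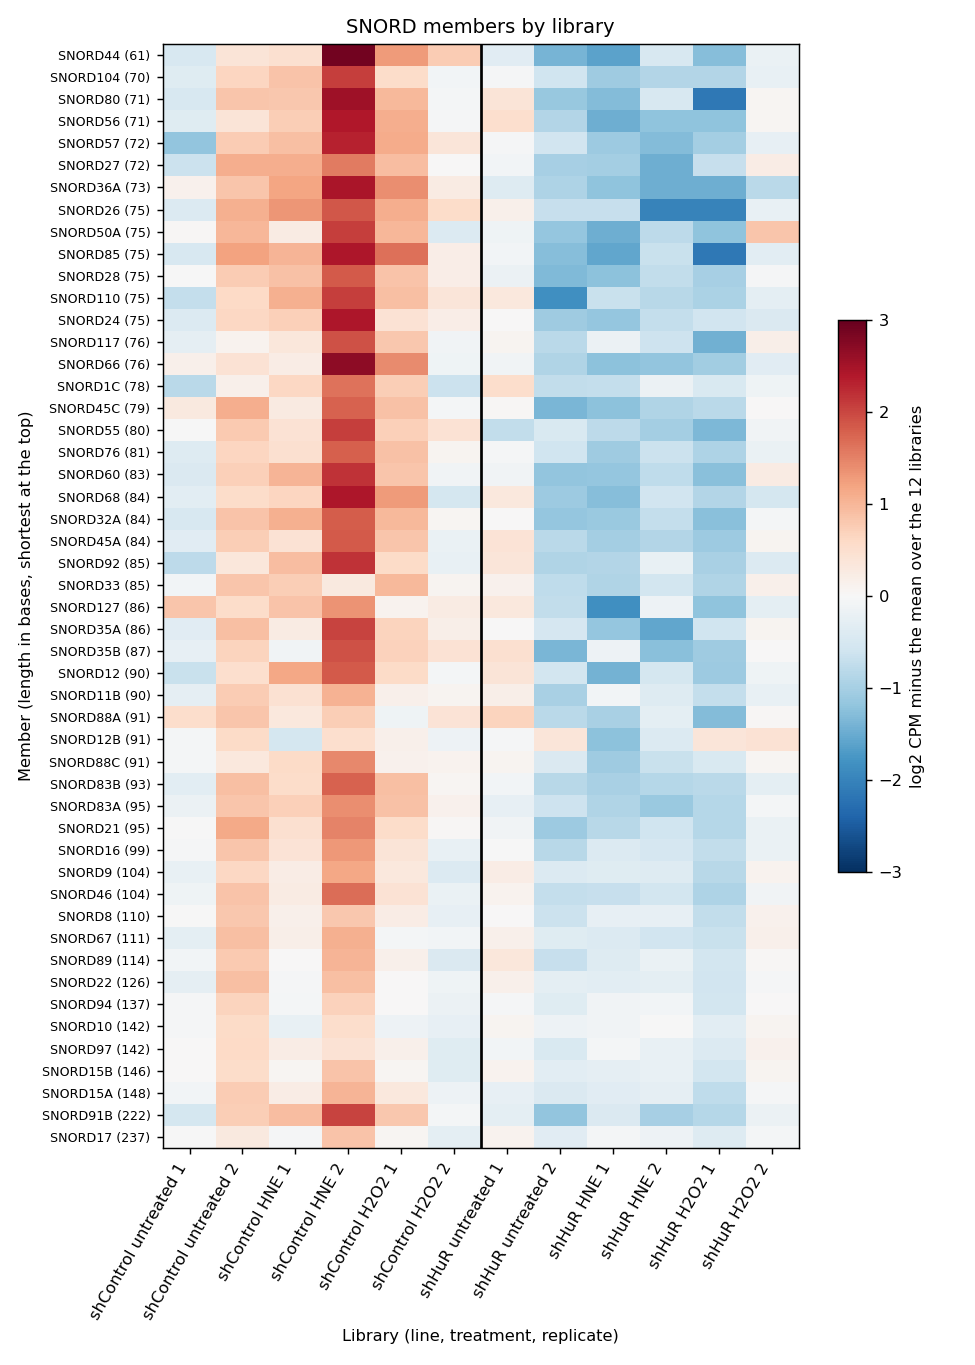
Each row is a member, from the shortest at the top to the longest at the bottom with its length in bases, and each column a library; colour gives log2 CPM minus the member's mean over the 12 libraries, and the black line parts shControl from shHuR. The second HNE library of shControl is the darkest red column, the highest of the 12 for 44 of the 50 members, and colours fade towards the long members at the bottom.

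Of the 6 members with the highest CPM, 5 had line differences between -0.51 and -0.17. SNORD15B, a guide for the large-subunit ribosomal RNA, read 555 and 801 CPM untreated, 571 and 998 with HNE, and 576 and 426 with H2O2 in shControl, and 593 and 442, 454 and 469, and 376 and 577 in shHuR. Its lines overlapped, and the average line effect of -0.41 ± 0.15 passed narrowly (edgeR, adjusted p = 0.0455). SNORD97 fell by 0.37 ± 0.12 and SNORD22, which is needed for processing of the small-subunit ribosomal RNA and whose mature RNA comes from SNHG1, by 0.51 ± 0.18. The calls of SNORD15B, SNORD97 and SNORD22 were each lost in 9 of 18 alternative fits, with adjusted p up to 0.346, 0.210 and 0.449, and DESeq2 called none of the 3. SNORD17, a guide for the large-subunit ribosomal RNA, and SNORD10 were not called, with log2 fold changes of -0.31 ± 0.13 and -0.17 ± 0.12. SNORD46, another guide for the large-subunit ribosomal RNA, stood between: its shControl libraries ran from 36.0 to 133 CPM with a median of 52.7, its shHuR libraries from 21.9 to 44.5 with a median of 27.0, and the average line effect was -1.02 ± 0.26.

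Grouped by length, 16 of the 17 members under 80 bases were called lower in the average line effect, with a median of -1.42. Among the 20 members of 80 to 99 bases 16 were called, with a median of -1.15. Among the 13 members of 100 bases or more 10 were called, with a median of -0.51. Untreated, the class medians lay closer together, at -0.75, -0.65 and -0.53 in the same order. Without the second untreated library of shControl they were -0.04, -0.07 and -0.10, so larger falls of short members were then not seen. Across the 50 members the average line effect and length had Pearson's r = 0.65 and Spearman's rho = 0.76. That correlation is a description across members that share their libraries, and length also went with level, with r = 0.72 between length and log2 mean CPM. Low level and short length were therefore found in the same members. The 10 members with a shHuR mean under 0.5 CPM, which had to be higher in shControl, were all under 100 bases. That choice of members favours falls in the shorter classes, and the class values and the correlation were not recomputed without them. SNORD91B, named after its values were seen, stood apart among the members classed as long. It stood at 3.16 CPM on average and had an average line effect of -1.38 ± 0.30. Its 222 bases are the annotated span, which no sequence found here could check, so its place in that class is uncertain.

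**Figure D2:**
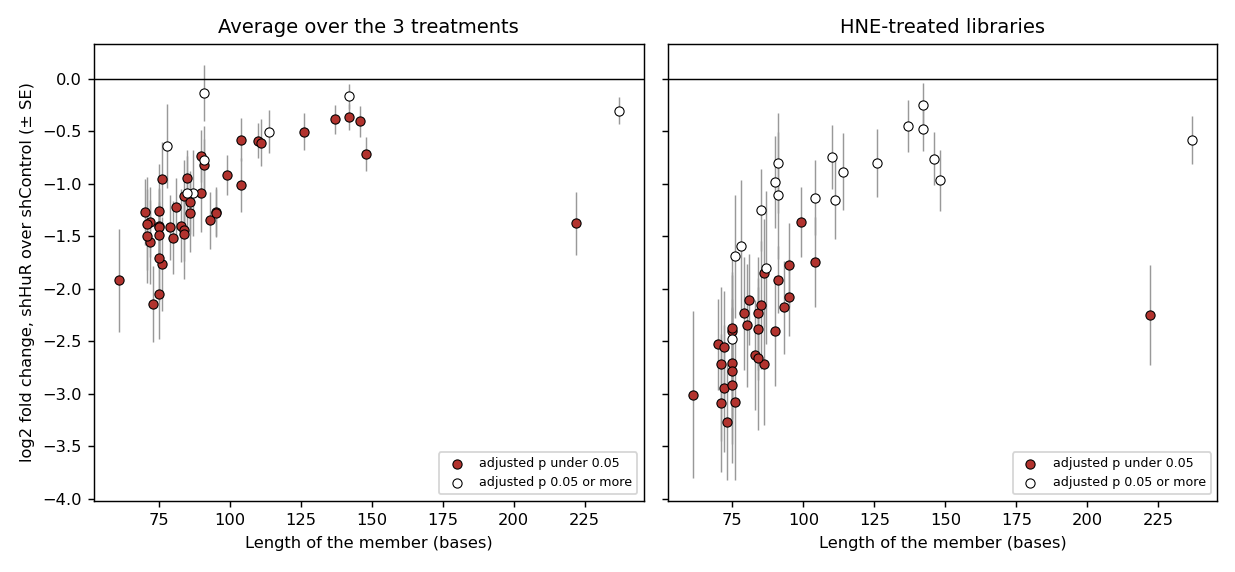
Each point is a member, placed by its length in bases and by the log2 fold change of shHuR over shControl with its SE, on the left averaged over the 3 treatments and on the right among HNE-treated libraries; filled points passed an adjusted p of 0.05 in edgeR. Short members lie lowest, members of 104 to 148 bases lie closer to 0, and SNORD91B, at an annotated span of 222 bases, lies at -1.38 and -2.25.

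With HNE, 31 of the 50 members were called lower in shHuR by edgeR and none higher, and 26 of the 31 were at least 4-fold lower. All 50 had a negative log2 fold change, with a median of -2.13. Over all genes tested, 5.04% were called lower in that comparison. Both shHuR libraries were below both shControl libraries for 48 members, an arrangement found in 26.8% of all genes. SNORD36A fell by 3.27 ± 0.55 on the log2 scale (adjusted p = 0.00341), or 9.63-fold, and the next falls were those of SNORD56, SNORD66 and SNORD44. SNORD36A, SNORD66 and SNORD44 had shHuR means under 0.5 CPM, and SNORD56 did not. SNORD56 and SNORD66 were each called in 14 of 19 alternative fits and SNORD44 in 13, and DESeq2 did not call SNORD44.

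The values of these members show the part played by the second HNE library of shControl. SNORD56, 1 of 3 members hosted by NOP56, read 1.97 and 6.21 CPM in the HNE-treated shControl libraries and 0.432 and 0.510 in the shHuR libraries, a log2 fold change of -3.09 ± 0.66. SNORD66 read 0.967 and 5.27 CPM against 0.354 and 0.365, and SNORD44 0.50 and 2.66 against 0.118 and 0.255. In each case the second shControl library was at least 3 times the first shControl library, and both shHuR libraries were below that first one.

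In SNORD24, SNORD60 and SNORD104, which had higher levels, the second HNE library of shControl was also above the first, though not by the same factor in each. SNORD24 read 3.04 and 9.93 CPM in HNE-treated shControl and 0.825 and 1.13 in shHuR. SNORD60 read 13.0 and 28.7 CPM against 2.87 and 3.79. SNORD104 read 4.70 and 10.95 CPM against 1.26 and 1.42. All 3 were called lower, and for each of them the first shControl library alone was also above both shHuR libraries.

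Leaving out that library changed the count of calls more than the direction. Without the second HNE library of shControl, 8 members were called lower with HNE (SNORD24, SNORD27, SNORD32A, SNORD36A, SNORD60, SNORD83A, SNORD88C and SNORD104), where 4.48% of all genes were. The median log2 fold change moved from -2.13 to -1.38, and 49 of 50 members stayed negative. Without the first HNE library of shControl 41 were called, where 6.35% of all genes were called lower, with a median of -2.63. Leaving out either HNE library of shHuR left the median at -2.06 or -2.23 but only 2 or 1 members called, where 1.04% or 0.62% of all genes were called lower. SNORD36A was called in 18 of the 19 alternative fits with HNE, with adjusted p up to 0.0675.

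**Figure D3:**
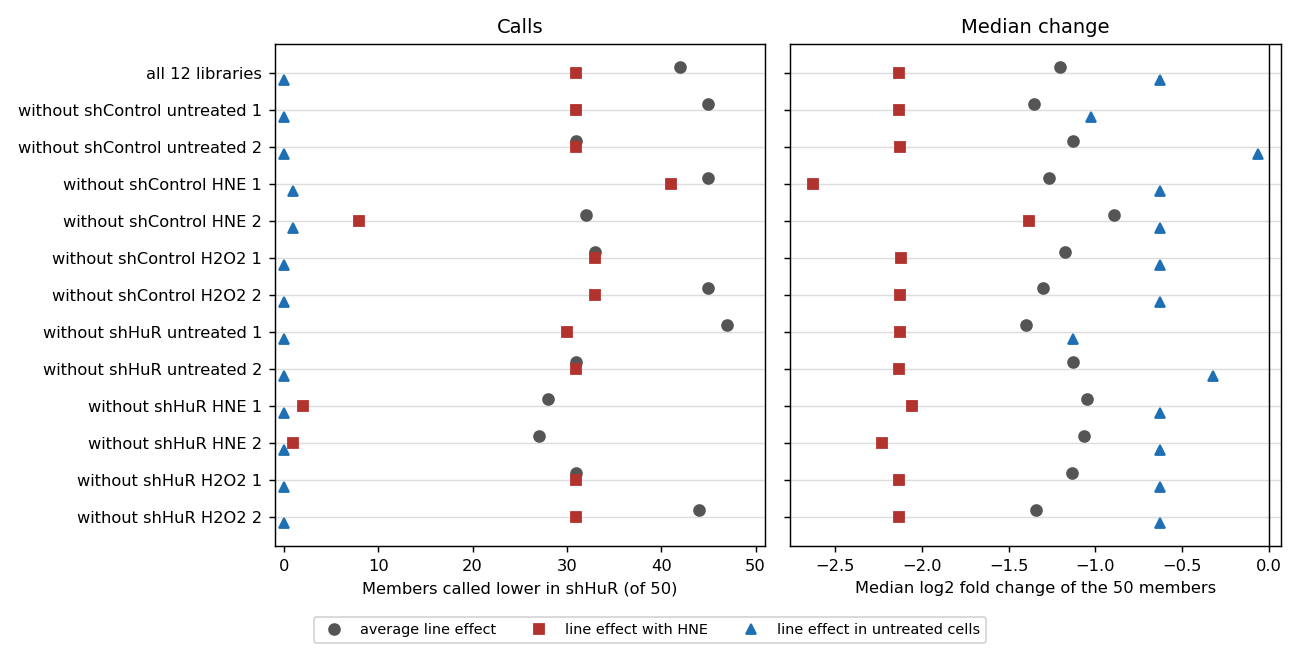
The left panel gives the number of the 50 members called lower in shHuR by edgeR and the right panel their median log2 fold change, with all 12 libraries and with each library left out in turn, for 3 line comparisons. The count with HNE drops from 31 to 8, 2 and 1 without the second shControl HNE library or either shHuR HNE library, while its median stays between -2.63 and -1.38; the untreated median moves to -0.06 without the second untreated shControl library.

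Untreated, 49 of 50 members were lower in shHuR, with a median log2 fold change of -0.63, but none was called by edgeR or by DESeq2. An unadjusted p under 0.05 was found for 9 members, and the share of all genes at that p is not given here. Over all genes tested, 4.48% were called lower. Both shHuR libraries were below both shControl libraries for 11 of the 50 members, against 28.6% of all genes, so that count is not above the background. This median rested on 1 library: without the second untreated library of shControl it was -0.06, with 31 of 50 members negative, and without the first it was -1.03. The untreated shHuR libraries also differed, since the median was -1.13 without the first and -0.32 without the second.

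With H2O2, SNORD36A was the only member called by edgeR and by DESeq2, at -2.01 ± 0.55 (edgeR, adjusted p = 0.0421). Over all genes tested, 4.67% were called lower, so 1 in 50 is not above the background. That call was kept in 8 of 19 alternative fits, with adjusted p up to 0.311. The median was -0.81, with 48 of 50 members negative. Among the 40 members with a shHuR mean of at least 0.5 CPM, 0 were called and the median was -0.76. For 24 members both shHuR libraries lay below both shControl libraries, against 26.5% of all genes. SNORD12B and SNORD10 were the members with a positive value, neither of them called. The median was -0.38 without the first H2O2 library of shControl and -1.09 without the second, and -0.43 without the first H2O2 library of shHuR and -1.32 without the second.

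Whether the line difference changed with treatment was tested as an interaction. No member was called for HNE by line, where the median was -1.33 with 46 of 50 negative, and 18 members had an unadjusted p under 0.05. The share of all genes at that p is not given here. Members also shifted together within a library, so these 18 are not separate observations. None was called for H2O2 by line, where the median was -0.02 and no member had an unadjusted p under 0.05. DESeq2 called none for either, and edgeR called 0% of all genes. A larger line difference with HNE than without it was thus not shown for any member. The median SE of the HNE interaction over members was 0.72 on the log2 scale. Values down to -2.98 were not called, so even differences well above that SE in size did not pass with 2 libraries a group.

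Treatment effects within a line passed for no member. In shControl, 47 of 50 members were higher with HNE, with a median of 0.93, but edgeR and DESeq2 called none, where edgeR called 0.0187% of all genes. An unadjusted p under 0.05 was found for 20 members, and the share of all genes at that p is not given here. For 20 members both HNE libraries lay above both untreated ones, against 19.3% of all genes. SNORD44 had the highest value, 2.09 ± 0.72. Without the second HNE library of shControl the median was 0.15 and 22 members were negative, whereas without the first 15 members were called higher, where 5.22% of all genes were called in either direction.

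In shHuR, HNE gave a median of -0.41 with 45 of 50 members negative, none called by edgeR or DESeq2 and none with an unadjusted p under 0.05, where edgeR called 0.075% of all genes. With H2O2 the medians were 0.11 in shControl and -0.11 in shHuR, no member was called by either tool, and edgeR called 0% of all genes in each; 1 member in shControl and 0 in shHuR had an unadjusted p under 0.05. The effects of HNE and of H2O2 within a line share their untreated libraries.

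Between replicates of the same group the members shifted together. From the first to the second library the median member rose by 0.79 on the log2 scale in untreated shControl and by 0.93 in HNE-treated shControl, in both with 49 of 50 members higher. It fell by 0.53 in H2O2-treated shControl and by 0.59 in untreated shHuR, with 48 of 50 lower in both, and rose by 0.54 in H2O2-treated shHuR, with 50 of 50 higher. Only the HNE-treated shHuR libraries lay close, with a median of 0.11 and 33 members higher. Over all genes the median shift was within 0.007 of 0 in each group, and the median size of a gene's shift was 0.09 to 0.18. For 48 members the sign followed that of the median in at least 5 of the 6 groups. Members are therefore not independent of each other within a library, and a count of members called does not amount to as many separate observations.

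The summed level of the members showed the same shifts. Summed over the 50, shControl held 1770 and 2737 CPM untreated, 1965 and 3269 with HNE, and 2017 and 1484 with H2O2, and shHuR held 1887 and 1381, 1547 and 1539, and 1272 and 1872. The mean was 2207 ± 666 CPM in shControl and 1583 ± 252 in shHuR (SD, n = 6 over the 3 treatments), 28.3% lower, and 2 of the 6 shHuR libraries were below every shControl library. Members under 80 bases summed to 41.2 ± 27.1 CPM in shControl and 14.1 ± 5.45 in shHuR, 65.8% lower. Members of 80 to 99 bases summed to 194 ± 74.5 and 88.3 ± 27.5 CPM, 54.5% lower, and those of 100 bases or more to 1972 ± 575 and 1481 ± 221 CPM, 24.9% lower.

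**Figure D4:**
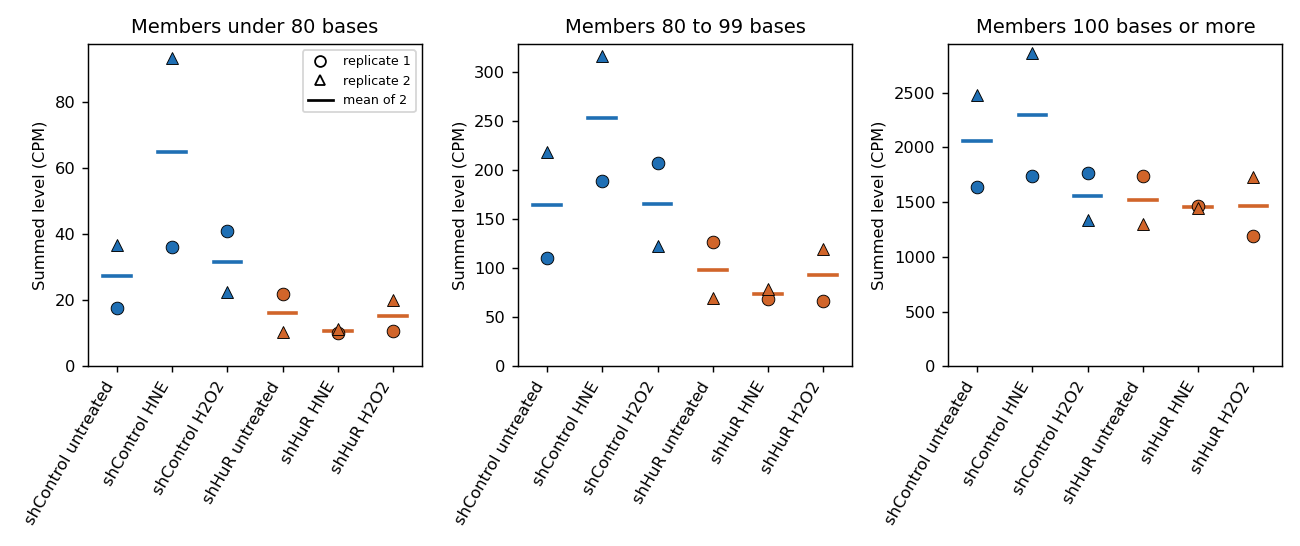
Each panel sums the CPM of the members of 1 length class in each library, with blue for shControl, orange for shHuR, circles for replicate 1, triangles for replicate 2 and a line at the mean of the 2; the vertical axes start at 0 and differ in scale. In the class of 100 bases or more the lines overlap untreated and with H2O2 and lie apart with HNE. Under 80 bases they lie apart with HNE and with H2O2 and overlap untreated. There the first shControl library (17.8 CPM) lies below the first shHuR library (22.0 CPM). The shHuR means under 80 bases (10.7 to 16.2 CPM) lie below the shControl means (27.2 to 64.7 CPM).

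In 5 of the 6 groups the gap between replicates was also widest for the members under 80 bases. In HNE-treated shControl the second library held 2.58 times the summed CPM of the first for members under 80 bases, 1.67 times for 80 to 99 bases and 1.64 times for 100 bases or more. In untreated shControl these ratios were 2.06, 1.98 and 1.51, and in H2O2-treated shHuR 1.89, 1.81 and 1.45. In H2O2-treated shControl, where the second library was the lower, they were 0.547, 0.592 and 0.757, and in untreated shHuR 0.475, 0.549 and 0.748. The HNE-treated shHuR libraries were the exception, with ratios of 1.12, 1.15 and 0.987. Over the 12 libraries the highest sum was 9.27 times the lowest for members under 80 bases, 4.76 times for the middle class and 2.39 times for the long class. The part of library preparation in these differences was not tested.

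With HNE and in the average line effect, the length pattern was still present without the second HNE library of shControl. With HNE the medians were then -1.81 under 80 bases, -1.42 for 80 to 99 bases and -0.38 for 100 bases or more, against -2.71, -2.10 and -0.80 with all libraries. In the average line effect they were -1.14, -0.89 and -0.33. Without both that library and the second untreated library of shControl, an alternative chosen after seeing the data, 25 members were called in the average line effect, where 14.5% of all genes were called lower, with a median of -0.84 and 48 of 50 negative.

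Another class of small nucleolar RNA gives a comparison. The 113 rows of box H/ACA and Cajal body RNAs (symbols starting with SNORA or SCARNA) with at least 0.5 CPM summed to 6417 ± 1385 CPM in shControl and 5402 ± 705 in shHuR, 15.8% lower. In the average line effect 29 of them were called lower and none higher, where 15.9% of all genes were called lower, with a median of -0.32. With HNE 17 were called lower, where 5.04% of all genes were, with a median of -0.53. These RNAs guide pseudouridylation or modify spliceosomal RNAs, and no test was made of the difference between them and the members.

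Host genes differed between the lines by far less than the members they carry. Of the 50 members, 48 had a host with a row in the table, in 31 host genes; SNORD60 and SNORD104 had none, as SNHG19 and SNHG25 have no row here. The summed host level was 21112 ± 1005 CPM in shControl and 19301 ± 641 in shHuR, 8.58% lower. In the average line effect 15 of the 31 hosts were called lower and 2 higher by edgeR, where 15.9% of all genes were called lower and 29.9% in either direction. The hosts had a median of -0.12, and all 48 members had a lower log2 fold change than their host. The median difference between a member and its host was -1.02 in that comparison and -1.80 with HNE, where 7 hosts were called lower and 1 higher against 5.04% of all genes called lower and 8.27% in either direction.

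RPL7A, host of SNORD36A and SNORD24, stood at 1656 ± 222 CPM in shControl and 1428 ± 117 in shHuR, with an average line effect of -0.21 against -2.15 and -1.41 for its 2 members. EIF4G1, host of SNORD66, had 0.06 and was not called. NOP56, itself a core protein of the box C/D particle, had 0.01 (edgeR, adjusted p = 0.901), whereas its 3 members SNORD56, SNORD57 and SNORD110 were all called lower with a median of -1.41. SNORD8 and SNORD9, guides for the U6 spliceosomal RNA, fell while their host CHD8 rose by 0.21, and SNORD97 fell while its host EIF4G2 rose by 0.19; these 3 were the members called lower in a host called higher, and SNORD8 and SNORD9 are named after their values were seen. The calls of SNORD97 and SNORD9 were kept in 9 of 18 alternative fits and that of SNORD8 in 16, with adjusted p up to 0.210, 0.308 and 0.129, and DESeq2 called SNORD8 alone of the 3.

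The non-coding hosts GAS5 and SNHG1 fell along with their members, by less. GAS5 stood at 197 ± 19.2 CPM in shControl and 152 ± 14.3 in shHuR, a log2 fold change of -0.37, and its 3 members (SNORD44, SNORD76 and SNORD80) were all called lower with a median of -1.50. SNHG1 stood at 138 ± 9.63 and 112 ± 7.87 CPM, a log2 fold change of -0.29, and its 4 members (SNORD22, SNORD26, SNORD27 and SNORD28) were all called lower with a median of -1.43. The 11 members in GAS5, ZFAS1 and the SNHG genes had a median of -1.27, with 9 called lower, and the 15 members in ribosomal protein genes a median of -1.28, with 14 called lower. Members of both kinds of host therefore had like medians.

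**Figure D5:**
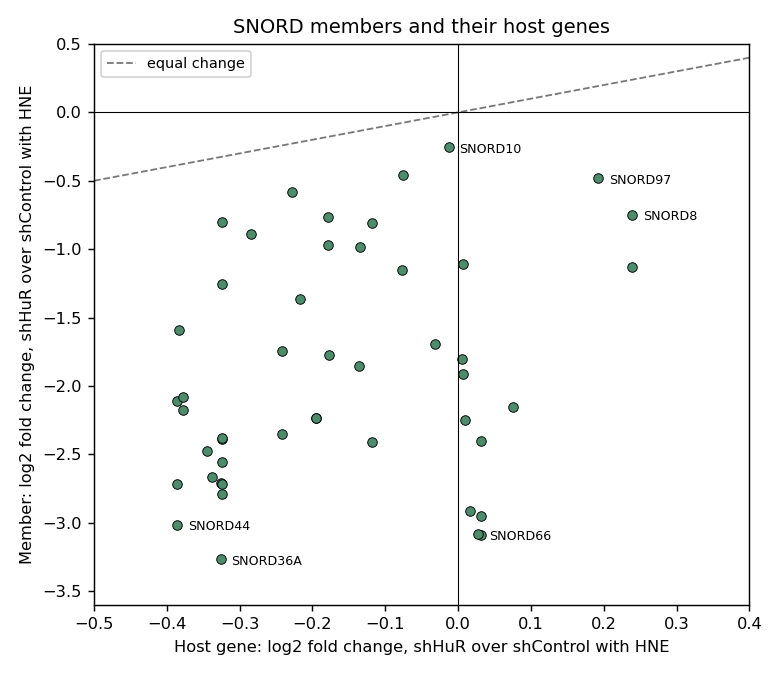
Each point is 1 of the 48 members with a host row, placed by the log2 fold change of its host (horizontal) and its own (vertical) for shHuR over shControl with HNE; the dashed line marks equal change, and the 2 axes differ in scale. All 48 points lie below the line, and hosts spread between -0.39 and 0.24 while members reach -3.27.

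The ratio of a member to its host moved between libraries as the members did. The log2 ratio (with 0.1 CPM added to both) had a median over the 48 members of -7.12 and -6.17 in the untreated shControl libraries, -6.57 and -5.61 with HNE, and -6.55 and -6.92 with H2O2. In shHuR it was -6.97 and -7.78 untreated, -7.69 and -7.39 with HNE, and -7.59 and -7.00 with H2O2. The shHuR libraries were mostly lower, but the first untreated shControl library lay among them. For 2 members, SNORD36A and SNORD45C, the ratio was lower in all 6 shHuR libraries than in any shControl library. For levels rather than ratios, 6.84% of all genes had this arrangement, so 2 in 48 is not above that background. SNORD36A is also a member only through shControl. SNORD36A went from -9.70 on average in shControl to -11.36 in shHuR.

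How reads in a member were divided from those of its host bears on these ratios. By the reference, 17 members lie in an intron of the host, 25 within an exon of some annotated host transcript and 3 partly in one, while 5 were placed from RefSeq without that reading. None of the members had fractional counts. Several are near copies of each other (SNORD15A and SNORD15B, SNORD83A and SNORD83B, SNORD45A and SNORD45C, SNORD88A and SNORD88C), and how reads that fit more than 1 copy were counted is not given in the sources used here, so their separate levels are uncertain. SNORD21 and SNORD97 lie opposite another gene, and use of strand in counting is likewise not given.

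Genes of the box C/D particle and of its assembly had a median log2 fold change of -0.01 in the average line effect. Of 22 listed genes, 3 were called higher and 3 lower, near the 29.9% of all genes called in either direction, and none was called with HNE. Fibrillarin (FBL), the methyltransferase, stood at 205 ± 30.4 CPM in shControl and 199 ± 12.8 in shHuR and was not called (-0.04). Among the other core proteins NOP58 fell by 0.12, RRP9, a protein of the U3 particle, rose by 0.23, and NHP2L1 (the older symbol of SNU13) was not called at 0.08. The assembly factors NUFIP1 and ZNHIT6 rose by 0.17 and 0.12.

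Among genes that process intron-derived RNA, the exonuclease XRN2 fell by 0.11 and PAPD5, a poly(A) polymerase that adds tails to such RNAs, fell by 0.33 (64.9 ± 4.90 to 51.8 ± 3.77 CPM; edgeR, adjusted p = 4.40e-04). The debranching enzyme DBR1 (0.02), the exosome nuclease EXOSC10 (0.08) and the deadenylase PARN (0.02) were not called. With HNE PAPD5 had -0.18 (edgeR, adjusted p = 0.254). SNORD3A, SNORD118 and SNORD13, box C/D RNAs with promoters of their own, were not analysed here.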

How the data were processed

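Per the submitters' processing notes, the tools included cutadapt 1.8, Bowtie2 2.2, TopHat2 2.1, Cufflinks 2.2, Cuffnorm and Cuffdiff, with GRCh37 (hg19) as the build; their roles, and whether counting used strand, are not given in the sources used here. The authors deposited estimated counts per gene symbol, of which 2.25% were not whole numbers, in 701 genes and in no member. The deposited FPKM table was not used.

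Counts were rounded to whole numbers and scaled with TMM (factors 0.965 to 1.03) in edgeR 4.0.16 under R 4.3.3; CPM uses the scaled library sizes, except that members were chosen on total counts. Genes were kept by filterByExpr (minimum count 10), leaving 16005. The quasi-likelihood F-test used 6 group means, or treatment and line for the average line effect, with 6 residual degrees of freedom in the former and a threshold of 0.05 after Benjamini-Hochberg adjustment. The biological coefficient of variation was 8.32%. With 24855947 to 29907259 counts a library, members at the lowest levels rest on a few counts, and errors between 2 libraries a group limit every comparison.

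A host was the gene on the same strand whose span holds the member, by GENCODE 29 on GRCh38, and with several the one with the highest mean CPM. For the 5 members placed from RefSeq (SNORD44, SNORD50A, SNORD76, SNORD80 and SNORD85) strand was not used. SNORD85 was matched there by synonym to SNORD103C, and its host and length rest on that match. Alternatives were DESeq2 1.42.0 or its size factors, scaling by library size without TMM, all genes with any count in place of the filter, the replicate number as a block, fits restricted to the 2 or 4 groups of a comparison, and fits lacking 1 library each. The tests were checked on simulated data in which each gene was drawn independently. That check therefore does not cover members that shift together within a library, nor the counts of members called.

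Members and lists were chosen with earlier results of these data known. Members named were the 4 with the largest rise and fall among those called in each comparison, both libraries of one group lying above both of the other (average line effect: called), the 6 with the highest CPM, SNORD24, SNORD60, SNORD104, SNORD17, SNORD22, and, as groups given by counts and medians, those of GAS5 and SNHG1. The rule also named SNORD3A, SNORD118 and SNORD13, which are no members and were not analysed here. A sequence and some host genes are not reported here.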

Additional observations from a re-analysis of the deposited data

How the results depend on the processing

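In the average line effect and with HNE, the 14 members that the rule named singly kept a negative value in all alternatives, except SNORD10. Counts of called members moved with the setting, and the cause was not tested. With no filter on low counts, edgeR called 21 members lower untreated, 46 with HNE and 20 with H2O2, where 4.81%, 5.69% and 4.88% of all genes were called lower. That fit called 23 members for HNE in shControl, 3 for HNE in shHuR, 7 for H2O2 in shControl, 19 for the HNE interaction and 1 for the H2O2 interaction, where 1.58%, 0.949%, 0.436%, 0.494% and 0.173% of all genes were called. Fits to the compared groups alone called 4 members lower untreated, 14 with HNE and 0 with H2O2, where 5.74%, 0.921% and 3.48% of all genes were, so the untreated count is near the background. Leaving out each library gave 27 to 47 in the average line effect (12.7% to 16.3% of all genes called lower), 1 to 41 with HNE (0.62% to 6.35%), 0 to 1 untreated (0.845% to 6.64%), 0 to 1 with H2O2 (1.26% to 6.5%), 0 to 15 for HNE in shControl (0% to 5.22% called) and 0 to 1 for the HNE interaction (0% to 0.53%). Without both second libraries named in the report there were 25, 11 and 3 calls in the average line effect, with HNE and with H2O2 (14.5%, 3.25% and 5.24% of all genes called lower). DESeq2 called 37 in the average line effect and 27 with HNE (16% and 5.5%).

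Same-numbered libraries did not deviate together (r from -0.176 to 0.218 over 15 pairs of groups). Pairing by number was thus not seen, but this cannot exclude it, since a pairing with small shared effects would look the same. With a replicate block 41 members were called in the average line effect, 29 with HNE and 0 with H2O2 (15.4%, 4.25% and 4.05% of all genes called lower). A floor of 1 CPM kept 40 members. Of the values of single members under the alternatives, 320 kept their side of the threshold and 66 did not, 57 of the latter with a library left out. In 25 members the average line effect was called in every alternative, with HNE in 0.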
